A study of Homo sapiens with 3 samples.

Results

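Translation initiation factors are the proteins that load the ribosome onto messenger RNA. The genes described here are those with symbols from EIF1 to EIF6 with their subunit letters, the 4E-binding proteins (EIF4EBP) included, while the EIF2AK kinases, pseudogenes and antisense genes were left out. The rule found 49 genes among the 18331 identifiers listed in any of the 3 deposited tables. EIF1AD, which encodes a protein with an eIF1A-like domain, and EIF4ENIF1, which encodes an eIF4E-binding transport protein, fall under it by symbol. Another 3 genes whose symbols follow the rule, among them EIF2S3B and EIF4E1B, were in none of the tables. Poly(A)-selected RNA of the human prostate cancer line PC-3 was sequenced, taken 7 days after lentiviral delivery of short hairpin RNA (shRNA), which silences a chosen gene by RNA interference. Of the 3 libraries, 2 carried KMT2D shRNA (libraries 1 and 2) and the genotype label KMT2D deficiency. The other, with control shRNA, was labelled KMT2D normal. The labels do not say whether the 2 KMT2D shRNA libraries came from separate cultures or carried different hairpins, so p-values measure only the spread between these libraries, which may be technical. In such bulk RNA, fewer cells of a type and less RNA per cell cannot be told apart.

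Initiation starts when eIF2, carrying the initiator tRNA, joins the small ribosomal subunit together with eIF1, eIF1A, eIF3 and eIF5. The cap-binding complex eIF4F, made of the cap-binding protein eIF4E, the scaffold eIF4G and the helicase eIF4A, brings that subunit to the mRNA, and the 4E-BPs block this step by holding eIF4E away from eIF4G. The exchange factor eIF2B recharges eIF2 with GTP and is the point at which stress kinases slow initiation, and eIF5B and eIF6 govern how the large subunit joins.

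KMT2D, which encodes a histone H3 lysine methyltransferase and was the target, was at 107 CPM in the first KMT2D shRNA library and 138 CPM in the second, with the control at 100.1 CPM; CPM here means counts relative to library size after TMM scaling. The level was not lower in the libraries labelled KMT2D shRNA, and the log2 fold change was 0.29 (SE 0.18) with an edgeR adjusted p of 0.227. In the fit that takes out the dependence on transcript length, described further on, KMT2D was lower (-0.69, edgeR adjusted p = 0.00701). Every direction given here therefore belongs to the labels. The KMT2D shRNA libraries held 5157550 and 5123817 expected counts and the control held 5559504. The epithelial markers KRT8, KRT18, EPCAM and CDH1 summed to 426 and 460 CPM in the KMT2D shRNA libraries, against 733 CPM in the control, a sum carried by KRT8 and KRT18. CDH1 alone of them was higher, at 17.8 and 18.5 CPM in the KMT2D shRNA libraries and 12.7 CPM in the control, and the part of these markers in the results was not tested. The prostate luminal markers KLK2 and KLK3 were in no table. The design text calls the profiles retinal; of 4 photoreceptor markers 2 were listed, and they summed to 14.9 and 14.8 CPM in the KMT2D shRNA libraries and 25.8 CPM in the control.

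Initiation factor genes are abundant. On the FPKM scale, which is per transcript length, the tested members had medians of 70.4 and 66.5 FPKM in the KMT2D shRNA libraries and 68.5 FPKM in the control, where all tested genes had medians of 9.36, 9.16 and 8.74 FPKM. The members together held 1.14% and 1.07% of all expected counts in the KMT2D shRNA libraries and 1.06% in the control. The highest levels were those of EIF5A, the hypusine-carrying elongation and termination helper, at 474 and 477 FPKM in the KMT2D shRNA libraries and 557 FPKM in the control, and of the helicase EIF4A1 at 437 and 415 FPKM and 475 FPKM. The lowest tested level was that of EIF4E3, an eIF4E paralog.

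Of the 49 members 46 passed the filter on low counts, and 7 rose and 7 fell in the libraries labelled KMT2D shRNA by edgeR's quasi-likelihood test, with p-values adjusted by Benjamini-Hochberg over 14016 genes and a threshold of 0.05. That is 15.2% each way, near the background of 16.5% of all tested genes that rose and 14.5% that fell (31.1% in either direction). The members that rose were EIF4G3, EIF4EBP2, EIF4G2, EIF3A, EIF4B, EIF4G1 and EIF1AX. Those that fell were EIF4EBP1, EIF6, EIF3M, EIF4A2, EIF1, EIF2S2 and EIF3K. In KMT2D shRNA library 1 alone 19 of the 46 were above the control and 27 below, and in library 2 alone 17 were above and 29 below. Both libraries lay above the control for 16 members and below it for 26, and the control lay between them for the other 4. Such counts were not made over all tested genes, so they cannot be read as particular to the members. The tested members were also shorter, with a median length of 2305 bases beside 2962 bases for all tested genes. The median log2 fold change of the members was -0.15, beside -0.01 for all tested genes.

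**Figure D1:**
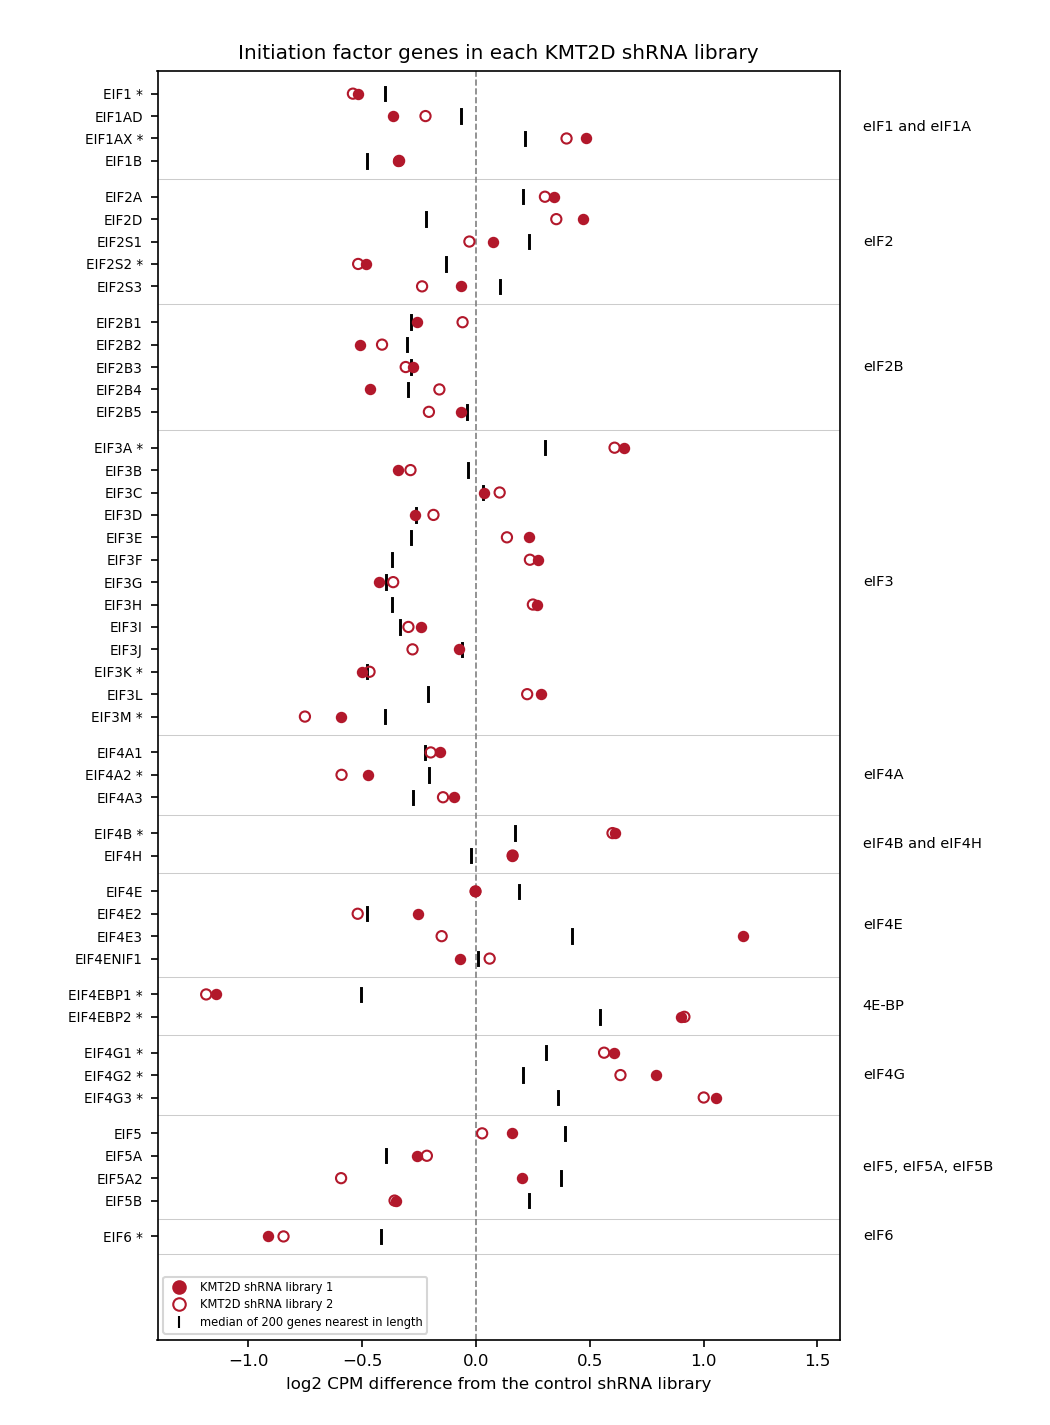
Difference in log2 CPM from the control for each of the 46 tested initiation factor genes, with filled circles for KMT2D shRNA library 1, open circles for library 2, black ticks for the median fitted log2 fold change of the 200 other tested genes nearest in length, and stars for genes past the threshold. All 3 EIF4G genes lie right of their ticks, and EIF4EBP1, EIF6 and EIF5B lie left of theirs in both libraries.

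The direction of the calls went with transcript length. The 7 members that rose had transcripts of 3904 to 7531 bases, and the 7 that fell had transcripts of 877 to 2592 bases, so the groups did not overlap in length. The trend with length also ran across the transcriptome, though there the genes that rose and those that fell did overlap in length. Of tested genes of 4000 bases or more 35.4% rose and 4.10% fell, while of genes under 1000 bases 1.50% rose and 45.8% fell. Among the members, 6 of the 11 of 4000 bases or more rose and 0 fell, and both members under 1000 bases fell, EIF4EBP1 and EIF3K. Of the 19 members from 1000 to under 2000 bases 0 rose and 4 fell, beside 3.50% and 27.0% of all genes of that length. Of the 14 from 2000 to under 4000 bases 1 rose and 1 fell, beside 10.8% and 11.9%. Spearman's coefficient of fitted log2 fold change with length was 0.66 over the 46 members and 0.47 over all tested genes, which share the same 3 libraries.

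**Figure D2:**
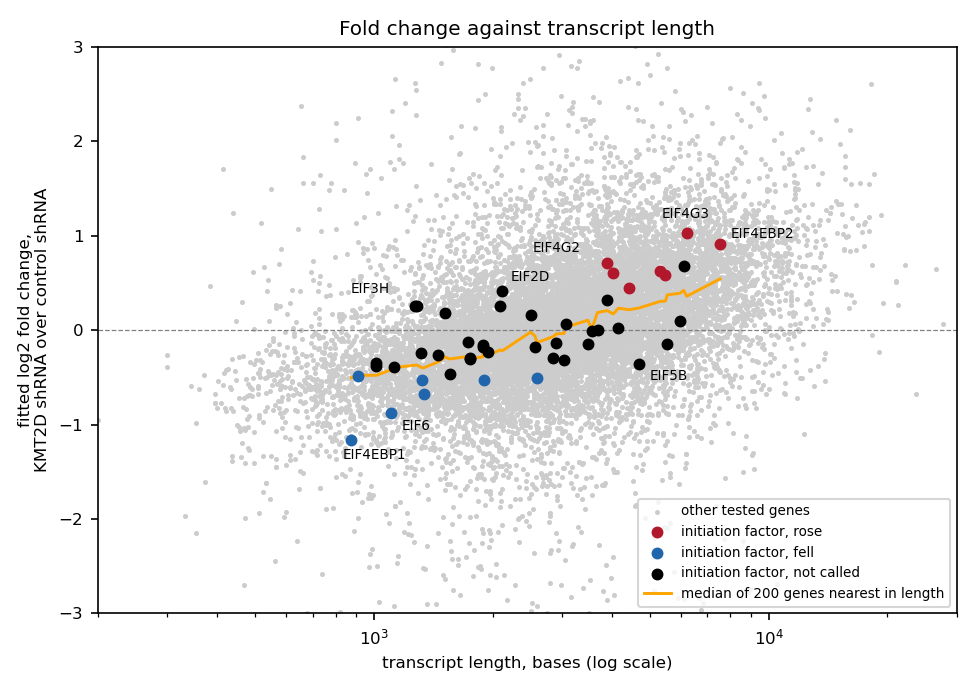
Fitted log2 fold change, KMT2D shRNA over control shRNA, against transcript length in bases on a log axis, with the other tested genes in grey, initiation factors coloured by their call and the median of the 200 nearest genes in orange. Initiation factors that rose sit at the long end and those that fell at the short end, and the orange line climbs with length. Another 158 tested genes, beyond 3 on the log2 scale or outside 200 to 30000 bases, are not drawn.

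Each member was therefore also set against the 200 tested genes of other kinds nearest to it in length. On that scale 25 members lay above the median of their neighbours and 21 below, with a median difference of 0.04 on the log2 scale and a range from -0.66 for EIF4EBP1 to 0.67 for EIF4G3. When the length trend was removed within the edgeR fit, called length correction here, 6 members rose and 3 fell, beside 8.70% and 9.14% of all tested genes (17.8% in either direction). The trend was taken against 1 control library, so a trait of that library and an effect of the shRNA cannot be told apart. A rise or fall in the corrected fit is relative to genes of like length. The members that rose in that fit were EIF4G3, EIF4G2, EIF3F, EIF3H, EIF2D and EIF3E, and those that fell were EIF4EBP1, EIF5B and EIF6. EIF4G3 and EIF4G2 rose in both fits, and EIF4EBP1 and EIF6 fell in both.

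The start of the mRNA was examined because several translation genes are known to carry a 5' terminal oligopyrimidine (TOP) tract, a C at the cap site followed by a run of pyrimidines, through which the kinase mTOR governs their translation. RefSeq start sites (GRCh38.p14) were found for 41 of the 49 members. A C at the start followed by 4 or more bases that were each C or T, read on the gene's own strand, was present for 9 of the 39 tested members with a start (23.1%), beside 7.20% of 11090 tested genes and 4.07% of all 35116 starts in the table. The sequences below run 5' to 3' from 15 bases before the RefSeq start to the first 15 bases of the transcript, and capitals mark the pyrimidine run.
EIF2A (chr3:150546772-150546801, plus strand): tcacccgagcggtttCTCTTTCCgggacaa
EIF2D (chr1:206612451-206612480, minus strand): ggtttccagccgggcCCTTTTCgcggccgg
EIF2S3 (chrX:24054941-24054970, plus strand): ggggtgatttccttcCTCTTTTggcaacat
EIF3D (chr22:36529152-36529181, minus strand): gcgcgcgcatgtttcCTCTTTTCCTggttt
EIF3F (chr11:7987322-7987351, plus strand): ttccgcttccgcctcCTTCTTTCTCgacaa
EIF3K (chr19:38619173-38619202, plus strand): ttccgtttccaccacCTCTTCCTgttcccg
EIF3M (chr11:32583816-32583845, plus strand): gcgcggcccagttccCTTTTCCggtcggcg
EIF4A2 (chr3:186783562-186783591, plus strand): gttgggcgccgctgtCTTTTCagtcgggcg
EIF4B (chr12:53006441-53006470, plus strand): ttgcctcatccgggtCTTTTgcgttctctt

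The 9 members found with such a start did not move as one group. Of the 9, EIF4B rose and EIF3K, EIF3M and EIF4A2 fell, and EIF3F and EIF2D rose only once the length trend was removed. Against their length neighbours 5 of the 9 lay above and 4 below, with a median of 0.04, and 15 of the 30 members without the run lay above, with a median of 0.01. A match is a property of the annotated start, and the start used in these cells was not measured. EIF2S2, EIF3A, EIF3CL, EIF3E, EIF3G, EIF3H, EIF3L and EIF4EBP1 were not matched to a start. Whether they carry the run was not examined, so these counts leave them out. With the length trend removed EIF3E and EIF3H rose, EIF4EBP1 fell, and the other tested genes among them were not called.

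Of the cap-binding complex and its relatives, 3 of 3 EIF4G genes rose (2 of 3 after length correction) and the cap-binding protein itself was level. Over all tested genes 16.5% rose, and 35.4% of those of 4000 bases or more, the length class of EIF4G1 and EIF4G3. EIF4G3, an eIF4G paralog, had 105 and 101 CPM in KMT2D shRNA libraries 1 and 2, against 50.1 CPM in the control. The libraries labelled KMT2D shRNA stood at 2.09 and 2.01 times the control. EIF4G3 rose by 1.03 (log2; SE 0.19; edgeR adjusted p = 2.34e-05), and by 0.64 once length was accounted for (edgeR adjusted p = 0.0138). EIF4G2, a relative that lacks the eIF4E-binding part and serves cap-independent initiation, had 1645 and 1477 CPM in the KMT2D shRNA libraries, against 952 CPM in the control. Its log2 fold change was 0.71 (SE 0.16, edgeR adjusted p = 3.96e-04) and 0.56 after length correction (edgeR adjusted p = 0.0176). EIF4G1, the main scaffold of eIF4F, had 910 and 883 CPM in the KMT2D shRNA libraries, against 597 CPM in the control. It rose by 0.59 (log2; SE 0.16; edgeR adjusted p = 0.00419), a change that missed the threshold once length was accounted for (0.26, edgeR adjusted p = 0.285). The deposited mean transcript length of EIF4G1 was 5549 bases in both KMT2D shRNA libraries and 5339 bases in the control.

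EIF4E, the cap-binding protein, had 59.3 CPM in each KMT2D shRNA library and 59.4 CPM in the control, and its log2 fold change was 0.00 (SE 0.18, edgeR adjusted p = 0.993). EIF4ENIF1, which carries eIF4E into the nucleus, had 18.2 and 19.9 CPM in the KMT2D shRNA libraries and 19.1 CPM in the control, so the control lay between them. Of the eIF4E paralogs, EIF4E2, a cap-binding repressor, had 47.4 and 39.4 CPM in the KMT2D shRNA libraries against 56.7 CPM in the control and was not called. EIF4E3 separated the KMT2D shRNA libraries from each other, with 19.3 CPM in the first and 7.49 CPM in the second, against 8.36 CPM in the control. The ratio of library 1 to library 2 was 2.58 (exact binomial 95% interval 1.76 to 3.85, counting error only), on 101 and 38 counts, and the gene was not called (edgeR adjusted p = 0.139).

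The 4E-BPs moved in opposite directions. EIF4EBP1, the inhibitor of eIF4E that mTOR phosphorylates and a known target of the stress factor ATF4, had 99.8 and 96.8 CPM in the KMT2D shRNA libraries, against 221 CPM in the control. It fell by 1.17 (log2; SE 0.17; edgeR adjusted p = 3.01e-07), the largest fall among the members, and stayed lower after length correction (-0.69, edgeR adjusted p = 0.00423). With the trend of fold change on transcript GC content removed as well, its value was -0.48 and missed the threshold (edgeR adjusted p = 0.0616). EIF4EBP2, the paralog with the same action, had 341 and 345 CPM in the KMT2D shRNA libraries, against 182 CPM in the control. Its log2 fold change was 0.91 (SE 0.17, edgeR adjusted p = 5.99e-05) and 0.41 with the length trend removed, which missed the threshold (edgeR adjusted p = 0.0952). These genes lie near the ends of the length range, with transcripts of 877 and 7531 bases. On the FPKM scale EIF4EBP1 was at 2.61 and 2.50 times EIF4EBP2 in the KMT2D shRNA libraries and at 10.8 times in the control. The summed level of both was 164 and 157 FPKM in the KMT2D shRNA libraries, against 279 FPKM in the control. The length trend was not removed from FPKM, and its part in this ratio and sum was not tested. The length neighbours of EIF4EBP1 had a median log2 fold change of -0.50 and those of EIF4EBP2 of 0.54. EIF4EBP3 was listed in the control table alone, with 7 counts, and was not tested; it lies in the readthrough gene ANKHD1-EIF4EBP3, so its reads could be split between both.

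**Figure D3:**
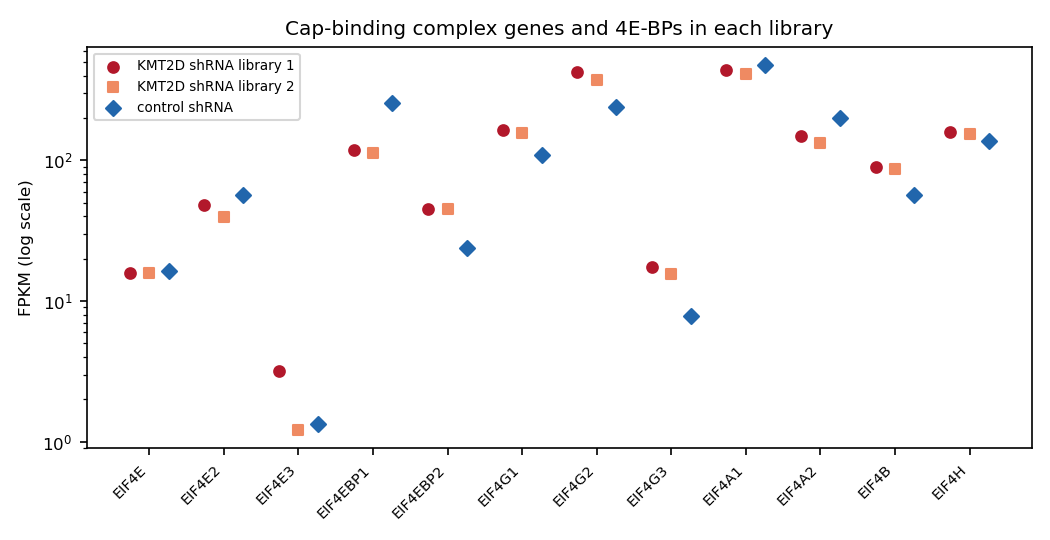
FPKM of the cap-binding complex genes and 4E-BPs on a log axis, with circles for KMT2D shRNA library 1, squares for library 2 and diamonds for the control. EIF4EBP1 is lower and EIF4EBP2 and all 3 EIF4G genes are higher in both KMT2D shRNA libraries, EIF4E is level, and EIF4E3 is high in library 1 only.

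Among the helicases and their cofactors, EIF4B, an RNA-binding cofactor of eIF4A, had 358 and 355 CPM in the KMT2D shRNA libraries, against 234 CPM in the control. It rose by 0.61 (log2; SE 0.17; edgeR adjusted p = 0.00512). The value of 0.43 with the length trend removed missed the threshold (edgeR adjusted p = 0.0786). EIF4A2, the minor paralog of the helicase, had 278 and 256 CPM in the KMT2D shRNA libraries, against 386 CPM in the control, and fell by 0.53 (log2; SE 0.16; edgeR adjusted p = 0.0106; -0.31 and edgeR adjusted p = 0.2 after length correction). EIF4A1, the main helicase, was at 813 and 790 CPM in the KMT2D shRNA libraries and 907 CPM in the control and was not called (log2 fold change -0.18). It shares sequence with the listed readthrough gene SENP3-EIF4A1, which rose by 6.755 on the log2 scale (6.688 with the length trend removed). Reads could be split between both genes, and the part of this in the EIF4A1 value was not tested. EIF4A3, which serves the exon junction complex, and EIF4H, a relative of eIF4B, were not called at -0.12 and 0.16.

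The subunits of eIF3, the largest initiation factor, did not move as a unit. Of 13 tested subunit genes 1 rose and 2 fell, and with the length trend removed 3 rose and 0 fell (0 also at an unadjusted p under 0.05), where all tested genes had 16.5% and 14.5% in the plain fit and 8.70% and 9.14% in the corrected one. DESeq2, another count model, called 0 higher and 1 lower, where it called 746 higher and 456 lower of all 14016 tested genes. EIF3A, the largest subunit and scaffold, had 195 and 189 CPM in the KMT2D shRNA libraries, against 124 CPM in the control, and its fold change was 0.63 (log2; SE 0.18; edgeR adjusted p = 0.00468) and 0.32 after length correction (edgeR adjusted p = 0.2). EIF3M, a subunit of the structural core, had 169 and 151 CPM in the KMT2D shRNA libraries, against 255 CPM in the control, and fell by 0.67 (log2; SE 0.17; edgeR adjusted p = 0.00159). With the length trend removed EIF3M was at -0.33 (edgeR adjusted p = 0.185). EIF3K, a small peripheral subunit, had 75.5 and 77.3 CPM in the KMT2D shRNA libraries, against 107 CPM in the control, and its fall of 0.49 on the log2 scale (edgeR adjusted p = 0.0265) was -0.02 with the length trend removed.

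The short subunit genes EIF3F, EIF3H and EIF3E stood above genes of their own length. EIF3F had 170 and 166 CPM in the KMT2D shRNA libraries, against 140 CPM in the control, a log2 fold change of 0.26 that missed the threshold (SE 0.17, edgeR adjusted p = 0.272). Its 200 length neighbours had a median of -0.37, and with the length trend removed EIF3F rose by 0.62 (edgeR adjusted p = 0.0128). EIF3H, its partner of the same protein fold, had 276 and 273 CPM in the KMT2D shRNA libraries, against 229 CPM in the control. EIF3H likewise missed the threshold at 0.26 (edgeR adjusted p = 0.252) and rose by 0.62 after length correction (edgeR adjusted p = 0.0118). EIF3E had 318 and 297 CPM in the KMT2D shRNA libraries, against 270 CPM in the control, at 0.18 (edgeR adjusted p = 0.427) and 0.49 after length correction (edgeR adjusted p = 0.0456), a call lost when the GC trend was removed too (0.41, edgeR adjusted p = 0.085). EIF3L, which pairs with EIF3K in the complex, lay 0.47 above its length neighbours on the log2 scale but was called in neither fit (edgeR adjusted p = 0.272 and 0.0774). The other subunit genes, EIF3B, EIF3C, EIF3D, EIF3G, EIF3I and EIF3J, were called in neither fit and had log2 fold changes from -0.40 for EIF3G to 0.07 for EIF3C. EIF3CL, a near-identical copy of EIF3C, had 3 counts in the control table alone and was not tested, and reads of the pair cannot be told apart with certainty.

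**Figure D4:**
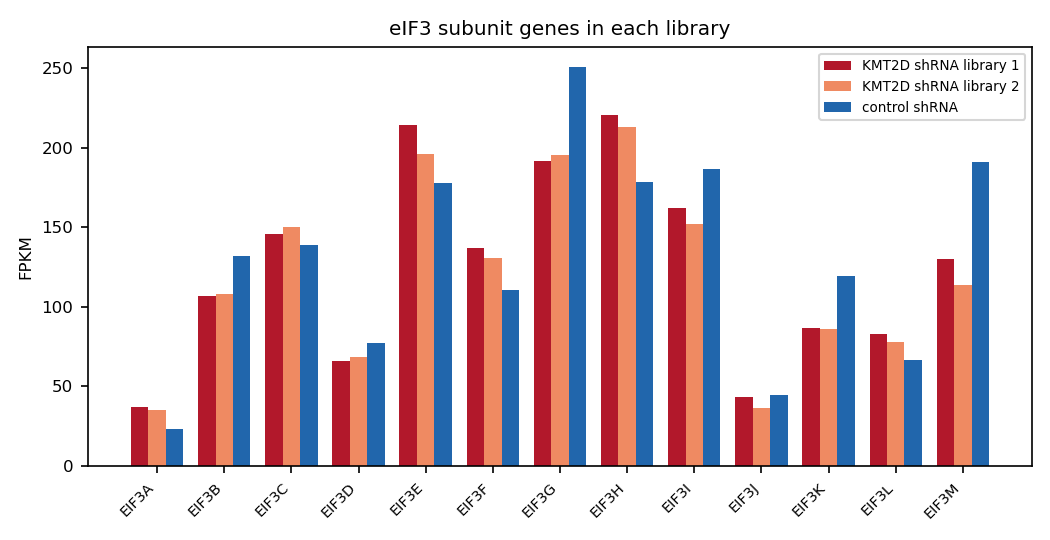
FPKM of the 13 tested eIF3 subunit genes in KMT2D shRNA library 1, KMT2D shRNA library 2 and the control, as bars from 0. EIF3A is the lowest subunit in every library, and EIF3M is at 130 and 113 FPKM in the KMT2D shRNA libraries, against 191 FPKM in the control.

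On the FPKM scale the ratio of the highest to the lowest eIF3 subunit gene was smaller in the KMT2D shRNA libraries. The highest subunit was at 5.98 and 6.08 times the lowest there, against 11.0 times in the control. The lowest was EIF3A in every library, and the highest was EIF3H in the KMT2D shRNA libraries and EIF3G in the control. The ratio thus rests on these genes and does not describe the spread of all subunits. EIF3J, the next lowest, was at 43.1 and 36.5 FPKM in the KMT2D shRNA libraries and 44.2 FPKM in the control. EIF3A, the longest of these transcripts, was at 36.9 and 35.0 FPKM in the KMT2D shRNA libraries and 22.9 FPKM in the control, and EIF3G, one of the shortest, was at 192 and 195 FPKM and 251 FPKM. Fold change with length moves the same way, and its part in this difference was not tested.

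In the eIF2 complex, EIF2S2, the beta subunit, fell while the other subunits were not called. EIF2S2 had 162 and 158 CPM in the KMT2D shRNA libraries, against 226 CPM in the control, and its fold change was -0.50 (log2; SE 0.17; edgeR adjusted p = 0.0181) and -0.42 after length correction (edgeR adjusted p = 0.0817). The alpha subunit EIF2S1, the site of stress phosphorylation, had 316 and 294 CPM in the KMT2D shRNA libraries and 300 CPM in the control, so the control lay between them. The gamma subunit EIF2S3 had 258 and 229 CPM in the KMT2D shRNA libraries and 270 CPM in the control (log2 fold change -0.15, edgeR adjusted p = 0.534). EIF2D, a factor that can deliver tRNA independently of eIF2, had 95.8 and 88.3 CPM in the KMT2D shRNA libraries, against 69.0 CPM in the control. It missed the threshold at 0.41 (SE 0.18, edgeR adjusted p = 0.0727) and rose by 0.59 after length correction (edgeR adjusted p = 0.0197). EIF2A, another initiator tRNA carrier, was not called at 0.33. All 5 genes of eIF2B, the exchange factor, were below the control in both KMT2D shRNA libraries, with log2 fold changes from -0.47 for EIF2B2 to -0.14 for EIF2B5, and 0 of the 5 were called in either edgeR fit or by DESeq2. At an unadjusted p under 0.05, edgeR had 1 of the 5 lower, EIF2B2 (edgeR adjusted p = 0.0705), and DESeq2 had 0. Their median difference from genes of like length was -0.01.

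Of the scanning factors, EIF1, which guards start codon choice, had 384 and 378 CPM in the KMT2D shRNA libraries, against 550.2 CPM in the control. It fell by 0.53 (log2; SE 0.16; edgeR adjusted p = 0.00919), a change that missed the threshold once length was accounted for (-0.18, edgeR adjusted p = 0.482). EIF1AX, its partner on the small subunit, had 221 and 208 CPM in the KMT2D shRNA libraries, against 158 CPM in the control, and rose by 0.44 (SE 0.17, edgeR adjusted p = 0.0459), likewise lost with the trend removed (0.22, edgeR adjusted p = 0.398). EIF1B and EIF1AD were below the control in both libraries and were not called at -0.34 and -0.29.

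Of the factors that act on the large subunit, EIF6, which keeps it apart from the small subunit, had 139 and 145 CPM in the KMT2D shRNA libraries, against 261 CPM in the control. EIF6 fell by 0.88 (log2; SE 0.17; edgeR adjusted p = 4.58e-05) and by 0.47 after length correction (edgeR adjusted p = 0.0484), and was at -0.36 with the GC trend removed as well (edgeR adjusted p = 0.119). EIF5B, the GTPase of subunit joining, had 189 CPM in each KMT2D shRNA library, against 242 CPM in the control. Its log2 fold change of -0.36 missed the threshold (SE 0.17, edgeR adjusted p = 0.0999), but its transcript is 4698 bases long and its length neighbours had a median of 0.235. With the length trend removed EIF5B fell by 0.60 on the log2 scale (edgeR adjusted p = 0.0106), and by 0.69 with the GC trend removed as well (edgeR adjusted p = 0.0151).

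EIF5, the GTPase activator of eIF2, was at 391 and 356 CPM in the KMT2D shRNA libraries and 350 CPM in the control (log2 fold change 0.10, not called). EIF5A was at 611 and 629 CPM in the KMT2D shRNA libraries, both below the control at 731 CPM, and was not called at -0.24. EIF5A2, its paralog, differed between the KMT2D shRNA libraries, with 31.4 CPM in the first and 17.9 CPM in the second, against 27.2 CPM in the control. Library 1 was at 1.75 times library 2 (exact binomial 95% interval 1.35 to 2.28, counting error only), and the control lay between them. EIF5AL1, an EIF5A-like copy, had 4 and 9 counts in the KMT2D shRNA libraries and 8 in the control and was not tested.

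**Figure D5:**
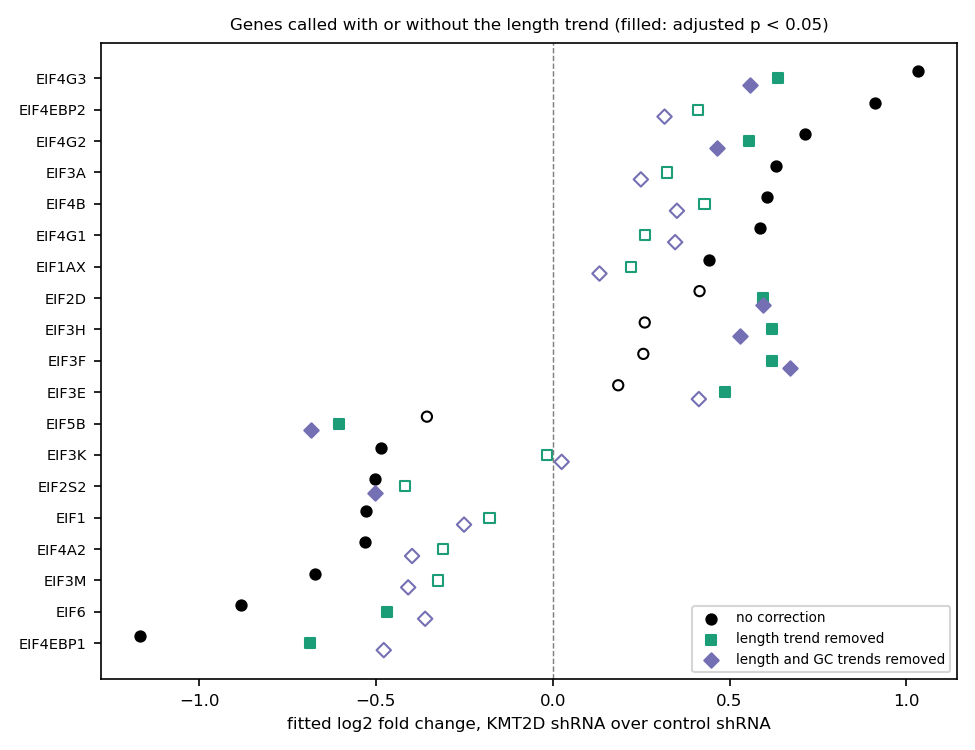
Fitted log2 fold change, KMT2D shRNA over control shRNA, of the 19 initiation factor genes called with or without the length trend, from the fit with no correction (circles), with the length trend removed (squares) and with the length and GC trends removed (diamonds), filled where the edgeR adjusted p was under 0.05. EIF4G3 and EIF4G2 are filled in all 3 fits, and EIF4EBP1 and EIF6 are open once the GC trend is removed.

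Genes around initiation were counted the same way. Of 6 tested eIF2 kinase and phosphatase genes, with a median length of 4565 bases, 2 rose and 2 fell, beside 16.5% and 14.5% of all tested genes and 35.4% and 4.10% of those of 4000 bases or more. EIF2AK2, the double-stranded RNA sensor kinase PKR and an interferon-induced gene, had 71.7 and 71.5 CPM in the KMT2D shRNA libraries, against 131 CPM in the control (log2 fold change -0.87, edgeR adjusted p = 8.69e-05). PPP1R15A, the stress-induced subunit that directs the eIF2 phosphatase, fell by 0.83 on the log2 scale, and both falls were also called with the length trend removed. The kinase genes EIF2AK4 and EIF2AK3 rose by 0.65 and 0.75, calls lost with the length trend removed.

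Of 17 tested partners and regulators of initiation 5 rose and 3 fell, read against the same 16.5% and 14.5% of all genes. PABPC1, the poly(A)-binding protein that contacts eIF4G, had 2331 and 2308 CPM in the KMT2D shRNA libraries, against 1539 CPM in the control, and PAIP1, its activating partner, had 140 and 126 CPM, against 67.8 CPM in the control. PABPC1 rose by 0.59 and PAIP1 by 0.97 on the log2 scale, and both rose with the length trend removed too (0.62 and 1.04). DDX3X, CYFIP1 and PAIP2B also rose, but only without that correction. MKNK2, a kinase of eIF4E, fell by 0.60 in the plain fit and by 0.61 with the trend removed, but was at -0.48 with the GC trend removed as well (edgeR adjusted p = 0.0567). PAIP2 and RPS6KB2 fell only in the plain fit. MCTS1, a recycling factor, fell only with the trend removed.

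Of 15 tested elongation, termination and recycling genes 1 rose and 2 fell, no larger a share than the 16.5% and 14.5% of all tested genes. EEFSEC, the selenocysteine elongation factor, fell by 0.91 on the log2 scale and EEF1D, an exchange factor subunit, by 0.77, while ABCE1, the recycling ATPase, rose by 0.51. With the length trend removed EEFSEC alone of these remained called, and with the GC trend removed as well it was at -0.62 (edgeR adjusted p = 0.0657). The mitochondrial initiation gene MTIF2 rose in both fits, by 0.49 (edgeR adjusted p = 0.0499) and 0.55, but not with the GC trend removed as well (0.46, edgeR adjusted p = 0.106), and MTIF3 was not called.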

How the data were processed

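The authors deposited 1 table per library with each gene's Entrez identifier, transcript length in bases, expected count (estimated reads per gene, not normalized) and FPKM, per the file headers. The submitters' processing notes name HISAT, Bowtie2 and the build hg19, with no role or version. How reads were counted is not stated there, and no strand-marking step is described, so overlapping and antisense genes cannot be told apart. Symbols came from RefSeq (99.5% of identifiers matched). Genes missing from a table were taken as 0. Expected counts were rounded and tested over all genes with edgeR 4.0.16 in R 4.3.3 (default filter, TMM, quasi-likelihood F test, Benjamini-Hochberg, threshold 0.05; 1 residual degree of freedom, biological coefficient of variation 10.9%). The control has no replicate and was assumed to vary like the KMT2D shRNA libraries. The fit had 45.7 prior degrees of freedom, so p-values rest mostly on a spread shared across genes and little on each gene's own. SE values derive from the F statistic, and log2 CPM per library used a prior count of 2. The length trend was a lowess curve (span 0.3) of each KMT2D shRNA library's log2 difference from the control on log10 length. It was entered as an offset. The GC trend used GENCODE transcripts (all 46 tested members had a value). FPKM served for levels alone. The fit was also run on data simulated from the fitted dispersion. Those data had no length trend and a control that varied as assumed, so neither point was tested by them. DESeq2 1.42.0 was an alternative. Members and lists were chosen with earlier results of these data known. All members were described; those called have values in every library, with pathway genes from written lists. Some cell type markers are not reported here.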

Additional observations from a re-analysis of the deposited data

How the results depend on the processing

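With DESeq2 size factors, library totals or a mean of 5 CPM or more, the counts of members that rose (6 to 7) and fell (6 to 7) stayed near 7 and 7. Over all tested genes 2319 rose and 2033 fell of 14016 in the main fit. In those settings, in that order, 2355, 1849 and 1960 rose and 1975, 1396 and 1682 fell, of 14016, 14016 and 11904. Members that fell numbered 3 without a filter on low counts, 3 with DESeq2's Wald test, 3 with the length trend removed and 2 with the length and GC trends removed (an alternative chosen after seeing the data), and members that rose numbered 5, 5, 6 and 5. Calls over all genes were fewer there too. Without a filter 1048 rose and 849 fell of 18258. Of 14016 genes 746 rose and 456 fell with DESeq2's Wald test. With the length trend removed 1219 rose and 1281 fell, and with both removed 810 and 905. Of the members called in the main fit, DESeq2's Wald test did not call EIF1 (DESeq2 adjusted p = 0.082), EIF1AX (0.234), EIF2S2 (0.176), EIF3A (0.062), EIF3K (0.308) or EIF4A2 (0.105). Without a filter on low counts EIF1, EIF1AX, EIF2S2, EIF3K, EIF4A2 and EIF4B missed the threshold. The members' median log2 fold change of -0.146 was 0.027 with the length trend removed and -0.002 with both removed, as the offset takes out a trend that put short members low; it ran from -0.174 without KMT2D shRNA library 1 to -0.070 without library 2, a setting that sets 1 library against 1 and allows no test. Of the 46 tested members, the sign turned for 2 with DESeq2 size factors, library totals or DESeq2, for 10 with the length trend removed, for 9 with both removed, and for 3 without KMT2D shRNA library 1 and 1 without library 2. EIF3K alone of these was a called gene. Among them were EIF4E (0.004 with DESeq2 size factors, 0.015 with library totals, 0.004 with DESeq2), EIF4ENIF1 (0.003, 0.014 and 0.004), EIF4E2 (0.053 with the length trend removed, 0.017 with both) and EIF5A (0.114 and 0.183). EIF3K, at -0.486, turned to 0.025 with both removed. With both removed EIF4G3 (0.557, edgeR adjusted p = 0.0465), EIF4G2 (0.463, 0.0483), EIF3F, EIF3H and EIF2D rose and EIF5B and EIF2S2 fell. No paired analysis was possible because the control group has 1 library. Depth was least for EIF4E3, at 38 to 101 counts a library. Beyond the construction of the offsets, the cause of these shifts was not tested.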
